A study of Mus musculus with 24 samples.

Results

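The comparison described here set mice fed a high-fat diet against mice fed a control diet when both had received metformin, the oral drug for type 2 diabetes. The RNA was that of C57BL/6N mice and of their distal small intestine. The HFDmetf group had a diet with 60% of its energy as fat, the CDmetf group one with 10%, each for 20 weeks without the drug and then for another 10 weeks with metformin in the drinking water at 50 mg per kg body weight per day. Feeding began at 4 to 5 weeks of age, and no group carried a genetic alteration according to the labels. Each group held 6 libraries, 3 from males and 3 from females, and each library came from 1 mouse of a different cage. The 12 libraries were taken from the read-count table of 24 by their group names, and the other 12 came from mice on the same diets without metformin (HFD and CD). Libraries are named by sex and replicate number (M1 to F3), and the number was taken as the block of the 3-block design of the study, which the labels do not state. The diet was the only labelled difference between the groups, and the question was which genes, by function and by cell compartment, differed with it while metformin was given.

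Enterocytes take up fatty acids and monoglycerides, rebuild triglycerides and export them in chylomicrons, and burn part of the fat in mitochondria and peroxisomes. Genes of fatty acid oxidation and ketone body formation are classical targets of the fatty acid receptor PPAR-alpha, whereas genes of cholesterol synthesis are switched on by SREBP-2 when sterols in the membrane run low. The same wall holds Peyer's patches and smaller lymphoid follicles rich in B cells, macrophages in the lamina propria, and an epithelium that answers interferons and bacteria. Metformin reaches high levels in the intestinal wall, enters cells through organic cation transporters and activates the energy sensor AMPK.

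Reads assigned to genes numbered 2929631 to 40384234 in the CDmetf libraries and 1829690 to 27226092 in the HFDmetf libraries. The shallowest library, HFDmetf F2, stood apart, since its 10 most abundant genes took 36.6% of the reads, against at most 16.8% in any CDmetf library, and 3 ribosomal RNA-like loci (Gm23935, CT010467.1 and Gm26917) took 30.3%. The named genes whose place past the threshold rests on this library are listed with their values without it after the cell lineages. Sex-linked transcripts matched the sex labels of all 12 libraries. Among the untreated libraries, HFD M2 and F2 had sex-linked transcripts that go against their labels and entered the fit as labelled, and without them 558 genes were higher and 613 lower at the unadjusted threshold used below. Also in that fit, CD M3 had most of its reads on a few genes, and without it 569 genes were higher and 805 lower. CDmetf M3, CDmetf F3 and HFDmetf F3 held far more mt-Co3 relative to mt-Co1 reads than the other 9 libraries, and with a term for such libraries 475 genes were higher and 592 lower. These 3 libraries were also the deepest, with 26687199, 40384234 and 27226092 reads on genes, against at most 10123045 in the other 9. The ribosomal RNA-like loci took 1.355, 1.377 and 1.4% of their reads, against at least 4.36% in the other 9. What sets these libraries apart was not tested. Levels are given as CPM, the reads of a gene scaled to a common library size by TMM, as the lowest, median and highest of the 6 libraries of a group. A count of 3 reads stands for 0.0712 to 0.980 CPM in the CDmetf and 0.102 to 1.71 CPM in the HFDmetf libraries, so that values in this range rest on a few reads and an absence cannot be told from a low level. Because the RNA came from whole tissue, fewer cells of a type and less RNA per cell cannot be told apart in any value below.

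Epithelial markers of the labelled tissue were abundant in every library, with Vil1, a microvillus protein, between 694 and 2670 CPM. Markers of position along the gut differed between libraries of both groups. Gata4, a transcription factor of the proximal and middle small intestine that the terminal ileum lacks, was at 111 and 74.5 CPM in CDmetf F1 and F3 and between 44.5 and 69.9 CPM in HFDmetf M2, M3, F1 and F3, but at 6.06 CPM or less in the other 4 CDmetf and the other 2 HFDmetf libraries. Lactase (Lct) split the libraries in the same way. The summed level of the enterocyte list was lowest in HFDmetf F2 and M1, at 7500 and 9647 CPM, against 17860 to 41100 CPM in the other 10 libraries. Summed markers of position, of lymphocytes and of fat are given beside the results they move with, and their part in a result was not tested except where a fit with Gata4 or the B-cell list as a covariate is given.

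No gene passed a false discovery rate (FDR) of 0.05 among the 14076 genes tested with edgeR's quasi-likelihood test (0% called), and the smallest FDR was 0.582. At an unadjusted p under 0.05, 539 genes were higher in HFDmetf (3.83% of those tested) and 569 were lower (4.04%), and these shares are the background for the counts below. Without HFDmetf F2 the counts were 332 (2.32%) and 363 (2.53%). limma-voom called 0 genes and DESeq2 called 3, Cd164, Pak2 and Sept7. The groups did not overlap for 12 genes higher (0.0853%) and 8 genes lower (0.0568%) in HFDmetf, and none of these was in any of the 48 lists. Among 14076 genes some separate fully by chance, and these counts were not tested against the number that would. The genes are therefore named as a description only. The 8 lower ones, named after their values were seen, were Itgb6, Cxcl16, Parp12, Taldo1, Rab5b, Gsk3b, Med19 and Gm42547, and the 12 higher ones Ttll4, Hcn3, Frem1, Nom1, Tubgcp3, Mettl6, Exog, Lif, B3galnt2, Gm47817, Ncaph2 and Mlst8. Cxcl16, a chemokine and scavenger receptor, lay at 24.1, 27.4 and 34.8 CPM in CDmetf and 16.3, 19.2 and 22.8 CPM in HFDmetf (-0.54 ± 0.20). Lif, a cytokine of the interleukin-6 family, lay at 1.83, 2.79 and 3.91 CPM and 4.00, 4.52 and 5.75 CPM (0.70 ± 0.23). Since no gene passed the test, the differences below are described by direction and size and as counts at the unadjusted threshold.

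**Figure D1:**
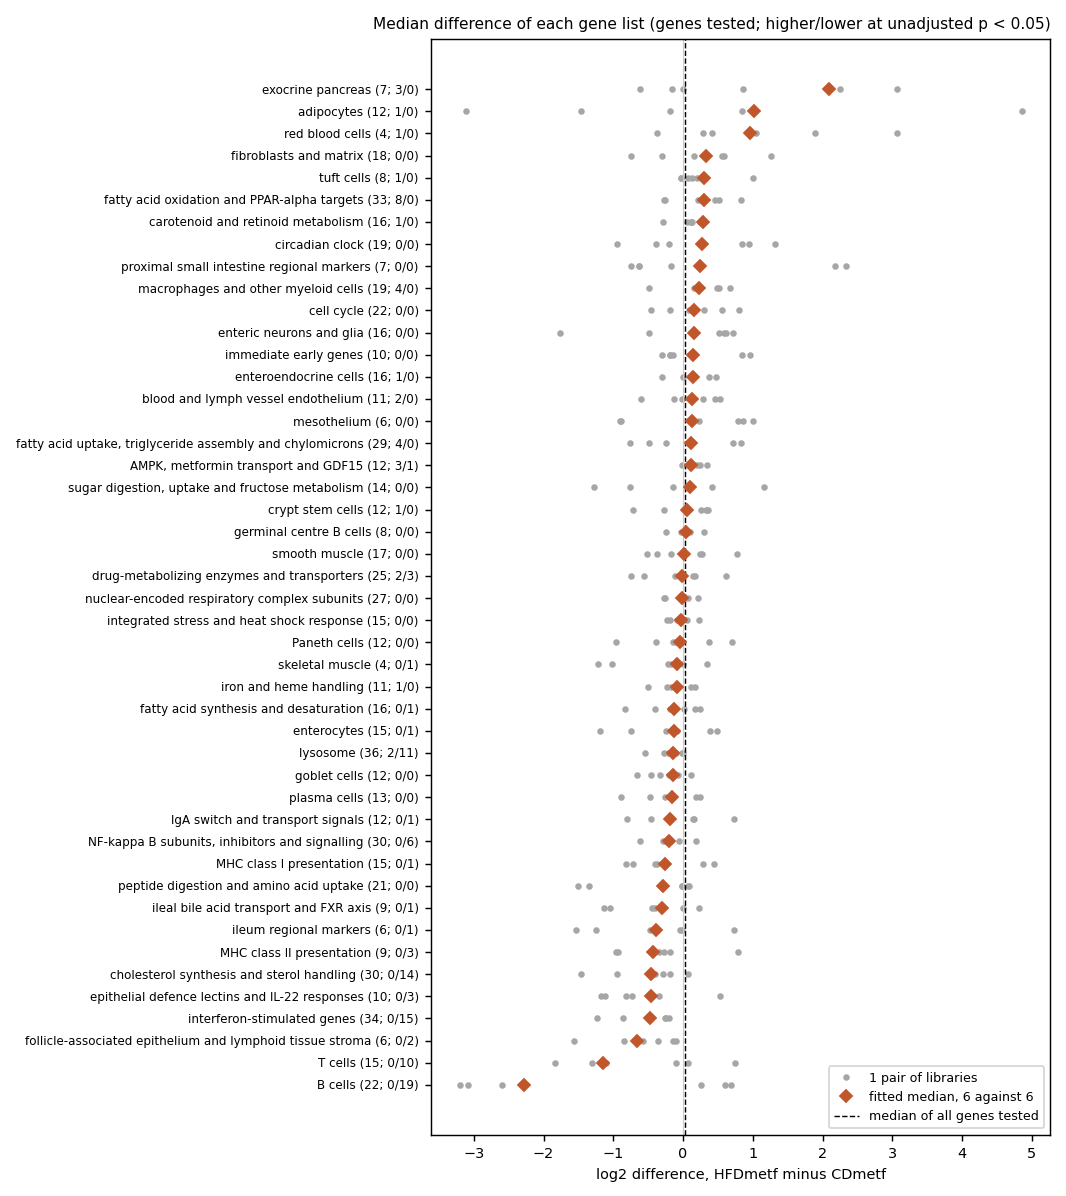
Median log2 difference (HFDmetf minus CDmetf, x axis) of each gene list with at least 3 genes tested (y axis, with the number tested and the numbers higher and lower at unadjusted p under 0.05). Grey points are the medians within each of the 6 pairs of libraries of the same sex and replicate number, diamonds the fitted medians, and the dashed line the median of all genes tested (0.033). B cells lay lowest, at -2.29, with pairs from -3.21 to 0.69.

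Among the genes lower in HFDmetf, the 10 with the smallest p at a mean of at least 1 CPM and in at least 5 of the 6 pairs were Acta1, Cd164, Pak2, Sept7, Retreg1, Ptprj, Fcrl1, Lamp2, Vcpkmt and Cpm. Cd164, a sialomucin of endosomes and lysosomes, lay at 186, 329 and 469 CPM in CDmetf and at 116, 199 and 246 CPM in HFDmetf. It was lower in 6 of 6 pairs, by a log2 difference of -0.74 ± 0.18 (SE, FDR 0.582), and CDmetf F1 and M1 lay within the HFDmetf range. Pak2, a kinase of the actin cytoskeleton, lay at 162, 210.0 and 238 CPM in CDmetf and at 126, 151 and 172 CPM in HFDmetf, a difference of -0.44 ± 0.11. The septin Sept7 differed by -0.36 ± 0.091, Retreg1, a receptor for the autophagy of endoplasmic reticulum, by -1.08 ± 0.28, and the receptor phosphatase Ptprj by -0.74 ± 0.19. Each of these 5 genes was lower in 6 of 6 pairs, as were Lamp2, Vcpkmt, which methylates the chaperone VCP, and the membrane peptidase Cpm, at -1.02 ± 0.28 and -0.99 ± 0.27. Agreement in at least 5 pairs was a condition of the rule, in either direction. The pair counts of genes named by it are thus no separate support. Fcrl1, a receptor of B cells, differed by -3.17 ± 0.84 and by -1.09 once the level of the B-cell list was a covariate.

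Genes higher by the same rule included Otop2, Papln, Tmem88b, Sfrp5, Tcirg1, Dgkh, Acaa2, Chpf2 and Slc26a10. Otop2, a proton channel of the epithelium, rested on few reads, with 0 to 2.94 CPM (median 0.949) in CDmetf and 0.569 to 7.53 CPM (median 4.10) in HFDmetf, a difference of 2.12 ± 0.55 (FDR 0.582). Sfrp5, a secreted inhibitor of Wnt signalling, was at 1.20, 2.55 and 2.94 CPM in CDmetf and 1.77, 6.75 and 17.1 CPM in HFDmetf (1.75 ± 0.47). The matrix glycoprotein Papln (0.69 ± 0.18) and the diacylglycerol kinase Dgkh (0.80 ± 0.22) were higher in 6 of 6 pairs. Tmem88b (1.64 ± 0.44), the chondroitin synthesis gene Chpf2 (0.62 ± 0.17) and the anion exchanger relative Slc26a10 (1.07 ± 0.30) were further ones. Of the exon bases of Chpf2, 44.1% overlap a gene on the other strand, and of Slc26a10 17.8%, and since reads in such overlaps were counted for neither gene, the values of both rest on their other exon bases.

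Genes of fatty acid oxidation and the PPAR-alpha programme were on the higher side in HFDmetf. Of 33 members tested of 36, 27 had a positive difference, 8 were higher at unadjusted p under 0.05 and 0 lower, and the median difference was 0.29 on the log2 scale against 0.033 over all genes tested. By sex, the median of the list was 0.43 in males and 0.054 in females. In the test between the sexes 1 of 33 members differed at unadjusted p under 0.05, against 5.28% of all genes. Within the F1 and F2 pairs it was -0.28 and -0.25, and within the other pairs it was 0.21 to 0.83. Acaa2, which cleaves the last bond in each turn of mitochondrial oxidation, had the smallest p, with 38.8, 50.1 and 83.3 CPM in CDmetf and 67.7, 91.1 and 100.4 CPM in HFDmetf. It was higher in 6 of 6 pairs (0.71 ± 0.20, FDR 0.582), and CDmetf F1 was the only library of its group inside the HFDmetf range.

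Cyp4a10 (chromosome 4, 115518264 to 115533649, plus strand, GRCm38), a fatty acid omega-hydroxylase and a classical PPAR-alpha target, was at 0, 0.113 and 7.84 CPM in CDmetf and 1.14, 3.44 and 11.0 CPM in HFDmetf. Every HFDmetf library lay above 5 of the 6 CDmetf libraries, the exception being CDmetf F1, the library with the highest Gata4. The lowest HFDmetf value, 1.14 CPM, and the CDmetf median, 0.113 CPM, lay in the range given above where values rest on a few reads. The fitted difference was 2.56 ± 0.87 (FDR 0.582, higher in 5 of 6 pairs), between 1.94 without HFDmetf M2 and 4.49 without CDmetf F1, and 2.25 with Gata4 as a covariate. Reads of Cyp4a10 can be shared with its near-identical neighbours Cyp4a31 and Cyp4a32. Eci2, an isomerase for unsaturated fatty acids, was higher by 0.57 ± 0.20 in 5 of 6 pairs. With Gata4 as a covariate 8 members were higher at unadjusted p under 0.05, where 5.71% of all genes were higher and 4.99% lower. With the B-cell list as a covariate 4 were, where 3.84% of all genes were higher and 3.17% lower. The count was 9 without HFDmetf F2 and 5 without HFDmetf M2.

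In the list for fatty acid uptake, triglyceride assembly and chylomicrons, 4 of 29 tested members were higher at unadjusted p under 0.05 and 0 were lower, with a median of 0.12. These were Mgll, which releases glycerol and fatty acid from monoglycerides (0.77 ± 0.29), the fatty acid translocase Cd36 (1.28 ± 0.52), the fatty acid transporter and acyl-CoA synthetase Slc27a2 (0.66 ± 0.29) and the lipid droplet coat Plin2 (0.49 ± 0.21). Cd36 lay at 14.2, 44.8 and 77.1 CPM in CDmetf and at 43.4, 102 and 226 CPM in HFDmetf, so that the upper 4 HFDmetf libraries were above all CDmetf libraries and the lower 2 were not. Cd36 is also made by macrophages, fat cells and vessels, and HFDmetf M1, M2 and F2, its 3 highest libraries, were also those of that group with the highest adipocyte sums. With Gata4 as a covariate 3 members were higher and 1 lower, with a median of -0.19. The number past the threshold was 1 without CDmetf F2 or HFDmetf M2 and 2 without CDmetf F3, CDmetf M1, CDmetf M2 or HFDmetf M1, and 0 without the F2 libraries of both groups.

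Fabp1 (chromosome 6, 71199827 to 71205023, plus strand, GRCm38), the liver-type fatty acid binding protein of enterocytes, was high in the Gata4-rich libraries of both groups. It was at 499.5 and 52.2 CPM in the Gata4-rich libraries CDmetf F1 and F3 and at 4.24 CPM or less in the other 4 CDmetf libraries. In HFDmetf the Gata4-rich M2, M3, F1 and F3 had 93.3 to 299.8 CPM, whereas M1 and F2 had 49 and 7.96 CPM, above the 4 Gata4-poor CDmetf libraries. The difference of 2.10 ± 1.52 had an unadjusted p of 0.182 (FDR 0.735), and with Gata4 as a covariate it was 1.45 (unadjusted p 0.0765). The sum of the proximal marker list, which includes Fabp1 itself, was 66.7, 154 and 3631 CPM in CDmetf and 96.1, 1436 and 2858 CPM in HFDmetf.

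**Figure D2:**
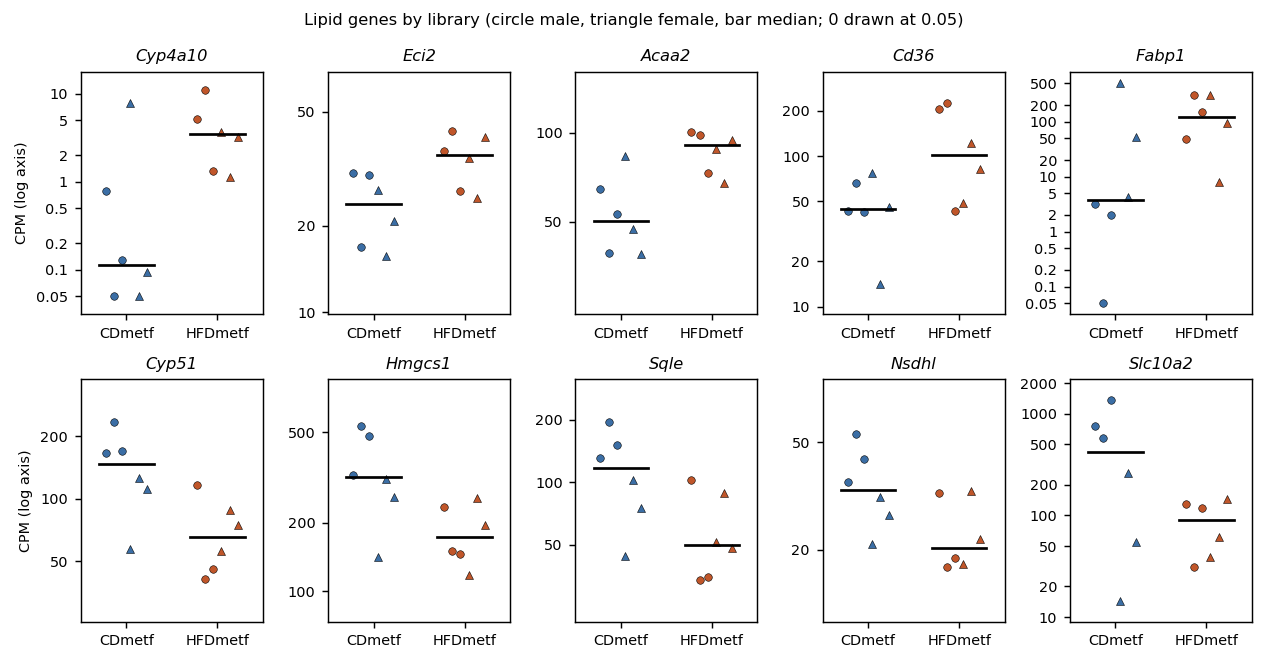
CPM (log y axis) of 10 lipid genes in each of the 6 CDmetf and 6 HFDmetf libraries (x axis). Cyp4a10, Eci2, Acaa2 and Cd36 had higher medians in HFDmetf, Cyp51, Hmgcs1, Sqle and Nsdhl lower ones, and for each of the 10 genes the groups overlapped.

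Genes of cholesterol synthesis were on the lower side in HFDmetf. Of 30 genes tested, 28 had a negative difference, 14 were lower at unadjusted p under 0.05 and 0 were higher, and the median was -0.47. Cyp51, the demethylase that turns lanosterol towards cholesterol, lay at 57.5, 147 and 236 CPM in CDmetf and at 40.8, 65.3 and 116 CPM in HFDmetf. It was lower in 6 of 6 pairs (-1.0 ± 0.29, FDR 0.582), with the lowest CDmetf value in the Gata4-rich F1. Hmgcs1, which makes the HMG-CoA from which the pathway starts, was lower in 6 of 6 pairs (-0.83 ± 0.26, FDR 0.582). Squalene epoxidase Sqle (-0.92 ± 0.33) and Nsdhl, which removes carbons from the sterol ring (-0.56 ± 0.20), were lower in 5 of 6 pairs each. All 4 had their 3 highest CDmetf values in the males. By sex, the median of the list was -0.82 in males and -0.18 in females, and 5 of 30 members differed between the sexes at unadjusted p under 0.05. With Gata4 as a covariate 7 members were lower at the unadjusted threshold and the median was -0.35, while Cyp51 was at -0.68 (unadjusted p 0.00145). With the term for libraries rich in mt-Co3 reads 7 were lower, with a median of -0.32. The count past the threshold in either direction was 7 without CDmetf M2 or HFDmetf M2, 8 without CDmetf M1, 9 without CDmetf M3, 22 without HFDmetf M1 (20 of them lower) and 24 without CDmetf F1 (23 of them lower).

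The promoter of Hmgcs1 is shown because it carries the letters of a classical sterol response element, TCACNCCAC on either strand, printed in capitals. It was the only one of the 21 list genes with a RefSeq window (30 tested, GRCm38.p6, from 250 bases before to 50 bases after the start) that did, and 1.44% of 27025 genes with a window do. The window is chr13:119690101-119690400 (plus strand), written 5′ to 3′ along the gene, and the match is a match of letters only.
Hmgcs1: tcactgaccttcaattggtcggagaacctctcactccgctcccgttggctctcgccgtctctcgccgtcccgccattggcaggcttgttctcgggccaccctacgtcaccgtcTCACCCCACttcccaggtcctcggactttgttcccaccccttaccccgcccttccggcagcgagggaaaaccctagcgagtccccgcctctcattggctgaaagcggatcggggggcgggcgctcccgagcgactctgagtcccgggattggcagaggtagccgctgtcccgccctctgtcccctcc

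Fatty acid synthesis had 1 of 16 members lower at unadjusted p under 0.05, the elongase Elovl1 (-0.39 ± 0.18), and none higher. In the bile acid list 1 of 9 was lower, Slc10a2, the ileal bile acid importer. Its levels were 14.4, 418 and 1363 CPM in CDmetf and 31.1, 90.5 and 146 CPM in HFDmetf, a difference of -1.93 ± 0.91 that was -0.35 (unadjusted p 0.654) with Gata4 as a covariate. The ileal marker list summed to 432, 2997 and 3892 CPM in CDmetf and 495, 1422 and 2606 CPM in HFDmetf. Slc10a2 and most other members of that list also belong to the bile acid list, so the sum is not a separate measure of position. HFDmetf M1 and F2 had little Gata4 like CDmetf M1, M2, M3 and F2, and their Slc10a2, at 131 and 62.0 CPM, was below the 263 to 1363 CPM of those 4. HFDmetf M1 and F2 also had the lowest enterocyte sums, at 9647 and 7500 CPM, against 17860 to 26500 CPM in those 4. The part of the enterocyte level in the lower Slc10a2 was not tested. Retsat, the retinol saturase, was the single member of the carotenoid and retinoid list past the threshold (1.02 ± 0.38). For sugar digestion, peptide digestion and the nuclear-encoded respiratory subunits, 0 of 14, 0 of 21 and 0 of 27 members passed in either direction, with medians of 0.093, -0.29 and -0.015.

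Lysosomal genes differed in both directions, more of them on the lower side. Of 36 tested, 11 were lower and 2 higher at unadjusted p under 0.05, with a median of -0.14. Besides Cd164, the membrane proteins Lamp2, which takes part in autophagy, and Lamp1 were at -0.49 ± 0.13 and -0.37 ± 0.15, and Tpp1, a peptidase of the lysosomal lumen, was at -0.44 ± 0.12. Lamp2 lay at 154, 192 and 234 CPM in CDmetf and 88.1, 132 and 208 CPM in HFDmetf, where F3 alone exceeded the CDmetf median. Tcirg1, a subunit of the proton pump that acidifies lysosomes, lay at 16.1, 18.7 and 22.2 CPM in CDmetf and at 17.0, 28.5 and 35.3 CPM in HFDmetf (0.52 ± 0.14), and 5 of the 6 HFDmetf libraries lay above all CDmetf libraries. Without HFDmetf F2 the list had 5 members lower and 2 higher, and with the B-cell list as a covariate 8 and 1. The number past the threshold in either direction was 7 without CDmetf M1 or HFDmetf F2 and 8 without CDmetf F3, HFDmetf F1, HFDmetf M1 or HFDmetf M2.

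Genes on metformin's own path were examined because both groups received the drug. Of 12 tested, 3 were higher and 1 was lower at unadjusted p under 0.05, and the number in either direction was 2 without HFDmetf M2. Slc22a3, an organic cation transporter that carries metformin, lay at 3.33, 5.91 and 12.2 CPM in CDmetf and 8.41, 10.8 and 16.1 CPM in HFDmetf and was higher in 6 of 6 pairs (0.86 ± 0.33). Of the AMPK subunits, the regulatory Prkab2 was higher (0.38 ± 0.15) and the catalytic Prkaa1 lower (-0.35 ± 0.14), and none of these 3 had an FDR below 0.599. Without HFDmetf F2, Prkaa1 was at -0.29 (unadjusted p 0.0578), and 3 members of the list were higher and 0 lower. Among drug-metabolizing genes, the carboxylesterase Ces2a was higher (1.06 ± 0.33) and the efflux pump Abcg2 lower (-0.71 ± 0.27, in 6 of 6 pairs), with 2 higher and 3 lower of 25. Their number in either direction was 2 without CDmetf M3, HFDmetf F3 or HFDmetf M2, 3 without CDmetf F2, CDmetf M1, HFDmetf F1 or HFDmetf M3 and 8 without HFDmetf M1. Ces2a can share reads with other Ces2 genes. The transferrin receptor Tfrc was the single iron gene past the threshold (0.51 ± 0.24).

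Interferon-stimulated genes were on the lower side in HFDmetf. Of 34 tested of 36, 33 had a negative difference, 15 were lower at unadjusted p under 0.05 and 0 were higher, with a median of -0.47. Ifit1, which binds foreign RNA, lay at 8.31, 14.4 and 36.7 CPM in CDmetf and 1.71, 5.91 and 12.8 CPM in HFDmetf, a difference of -1.48 ± 0.44 (FDR 0.582, lower in 6 of 6 pairs). Its 2 highest values were in CDmetf F2 and F3, and the lowest was in HFDmetf F2. Irf7, the transcription factor that amplifies the type I interferon response, was at 67.5, 70.2 and 108 CPM in CDmetf and 21.1, 33.9 and 83.2 CPM in HFDmetf (-1.0 ± 0.30), and 5 of the 6 HFDmetf libraries lay below every CDmetf library. The RNA sensor Ifih1 was at -0.59 ± 0.18 and the interferon-gamma-induced GTPase Igtp at -1.36 ± 0.40, each lower in 6 of 6 pairs. Igtp rested in part on CDmetf F3, at 30.7 CPM, and was at -0.62 (unadjusted p 0.0276) without it.

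The sum of the list, over all its members, was 1046, 1236 and 1744 CPM in CDmetf and 799, 919 and 1086 CPM in HFDmetf, with HFDmetf M3 alone above the lowest CDmetf library. The counts lower at unadjusted p under 0.05 were 14 without HFDmetf F2, 16 with Gata4 as a covariate and 8 with the B-cell list as one, where the median was -0.33 and Ifit1 was at -1.26 (unadjusted p 0.0134). The promoters of 3 of the members named above that carry the letters GAAANNGAA, the core of the interferon response element, on either strand are shown with the matches in capitals. The letters were found in 17 of 25 list genes with a RefSeq window, in 8 of the 11 with a window that were lower at unadjusted p under 0.05, and in 9.76% of all genes with a window. The windows (GRCm38.p6, 5′ to 3′ along the gene) are chr19:34640639-34640938 (plus strand), chr11:58199306-58199605 (plus strand) and chr2:62646206-62646505 (minus strand), and a match of letters does not show a bound site.
Ifit1: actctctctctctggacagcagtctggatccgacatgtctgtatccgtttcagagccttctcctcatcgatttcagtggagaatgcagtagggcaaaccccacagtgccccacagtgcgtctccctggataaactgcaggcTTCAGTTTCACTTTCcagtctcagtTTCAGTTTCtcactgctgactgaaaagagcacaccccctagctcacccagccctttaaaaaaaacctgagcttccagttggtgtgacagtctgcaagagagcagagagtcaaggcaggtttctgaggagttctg
Igtp: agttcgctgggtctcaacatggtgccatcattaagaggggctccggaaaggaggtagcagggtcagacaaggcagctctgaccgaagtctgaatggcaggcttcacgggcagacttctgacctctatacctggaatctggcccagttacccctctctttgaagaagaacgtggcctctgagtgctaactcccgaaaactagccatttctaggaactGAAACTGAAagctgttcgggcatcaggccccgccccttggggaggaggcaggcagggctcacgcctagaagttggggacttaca
Ifih1: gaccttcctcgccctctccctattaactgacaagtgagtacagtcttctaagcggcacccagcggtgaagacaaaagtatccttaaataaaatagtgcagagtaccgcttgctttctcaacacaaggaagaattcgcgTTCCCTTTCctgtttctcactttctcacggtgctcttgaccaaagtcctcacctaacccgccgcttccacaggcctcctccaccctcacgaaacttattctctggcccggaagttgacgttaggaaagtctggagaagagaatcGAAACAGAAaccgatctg

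NF-kappa B genes had smaller differences. Of 30 tested, 25 had a negative difference, 6 were lower and 0 higher at unadjusted p under 0.05, and the median was -0.20. By sex, that median was -0.00028 in males and -0.37 in females. Within the M3 pair it was 0.18, and within the other pairs it was between -0.62 and -0.058. Rel (chromosome 11, 23736847 to 23770970, minus strand, GRCm38), the c-Rel subunit that lymphocytes use most, lay at 29.4, 33.4 and 51.2 CPM in CDmetf and 15.4, 24.2 and 33.6 CPM in HFDmetf, lower in 5 of 6 pairs, with a difference of -0.53 ± 0.19 (FDR 0.599). Its highest value was in CDmetf F2, the library richest in B-cell transcripts, and HFDmetf M3 alone of its group lay inside the CDmetf range. With the B-cell list as a covariate Rel was at -0.36 (unadjusted p 0.0663). The subunit Nfkb2 (-0.50 ± 0.18), the inhibitor Nfkbia, itself a target of the pathway (-0.41 ± 0.15), and the ubiquitin ligase Birc3 (-0.46 ± 0.19) were lower in 5 of 6 pairs each, and 2 of the 30 were lower at the threshold with the B-cell list as a covariate. Nfkbia was one of them, at -0.36 (unadjusted p 0.0403). The count past the threshold was 2 without CDmetf F3 and 3 without CDmetf M1 or HFDmetf F2.

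**Figure D3:**
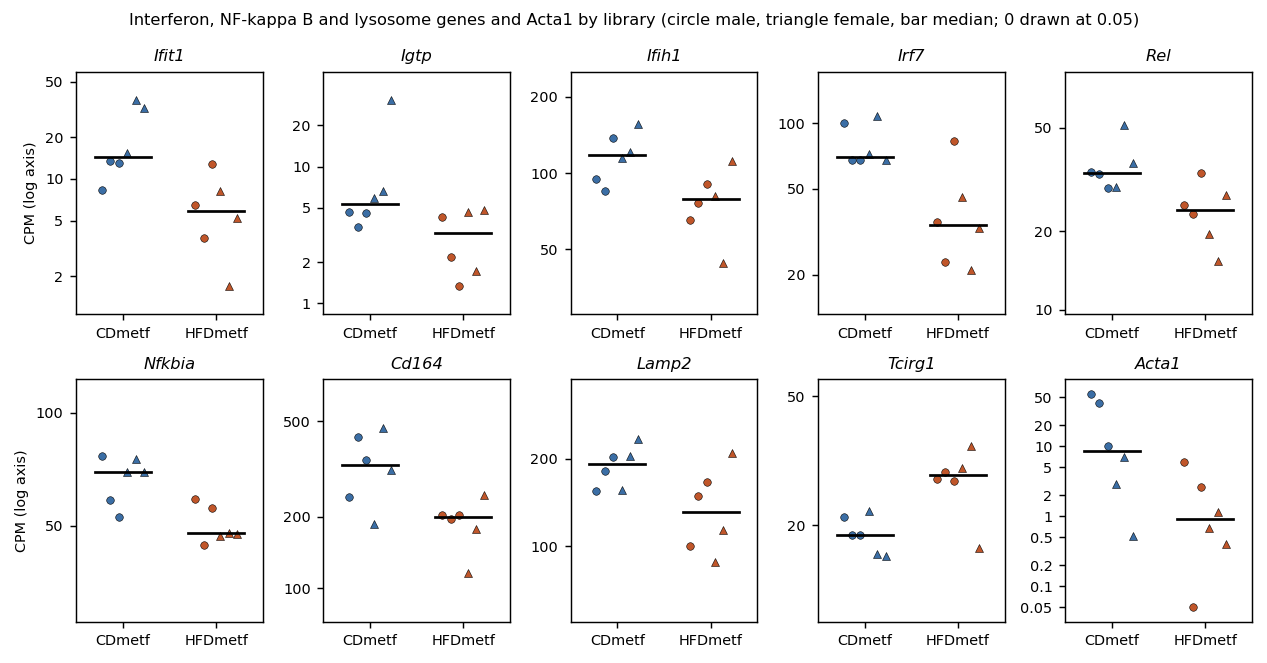
CPM (log y axis) of interferon-stimulated genes, NF-kappa B genes, lysosomal genes and Acta1 in each library of the 2 groups (x axis). All but Tcirg1 had lower medians in HFDmetf, and for each of the 10 genes at least 1 library of one group lay inside the range of the other.

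Transcripts of B cells had the lowest median difference of all lists, and they were high in 3 of the 6 CDmetf libraries. All 22 B-cell genes had a negative difference, 19 were lower at unadjusted p under 0.05, and the median was -2.29. The sum of the list was 751, 333 and 230.1 CPM in CDmetf F2, M1 and F3, against 64.1 to 79.1 CPM in the other 3 CDmetf libraries and 42.7 to 99.5 CPM in the 6 HFDmetf libraries. The other 3 CDmetf libraries thus lay inside the HFDmetf range. The IgM receptor Fcmr lay at 0, 3.35 and 23.9 CPM in CDmetf and 0, 0.236 and 3.41 CPM in HFDmetf (-4.38 ± 1.20). Fcmr, the complement receptor Cr2 (-3.28 ± 0.98) and Cxcr5, the chemokine receptor that leads B cells into follicles (-3.55 ± 1.12), had the same 3 CDmetf libraries highest. Cxcl13, the ligand of Cxcr5 made by follicle stroma, lay at 2.71, 9.62 and 37.3 CPM in CDmetf and 1.26, 2.67 and 5.12 CPM in HFDmetf (-2.29 ± 0.75). Of its list, follicle-associated epithelium and lymphoid tissue stroma, 6 of 14 genes were tested. At unadjusted p under 0.05, 2 were lower and 0 higher, with a median of -0.66. With the B-cell list as a covariate 0 passed and the median was 0.10. The count past the threshold was 1 to 4 as single libraries were left out. Whether a follicle was in the piece of gut taken is not recorded in the labels.

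T-cell genes were highest in the same 3 libraries, though CDmetf F3 lay close to the highest HFDmetf library. The sums of the list were 279.6, 108.8 and 87.2 CPM in CDmetf F2, M1 and F3. They were 37.6 to 67.0 CPM in the other CDmetf libraries and 40.8 to 80.2 CPM in HFDmetf. Of 26 listed, 15 passed the filter on low counts, all of them with a negative difference, and 10 were lower at unadjusted p under 0.05, among them the receptor chain Trac (-1.96 ± 0.70), Slamf6 (-1.75 ± 0.66) and the kinase Lck (-1.51 ± 0.61). With the B-cell list as a covariate 0 of the 15 passed, and the count was 1 without CDmetf F2, 4 without HFDmetf F1 or HFDmetf F3, 5 without CDmetf F3 or HFDmetf M2 and 6 without CDmetf M1 or HFDmetf F2. For MHC class II presentation, 3 of 9 genes were lower, namely H2-DMb2 (-2.11 ± 0.66), H2-Ob (-2.11 ± 0.70) and H2-Aa (-0.45 ± 0.20). The first and second of these act on peptide loading, and with the B-cell list as a covariate they were at -0.29 and -0.15. The count was 9 without CDmetf M2, and reads of H2 genes can be shared between family members. MHC class I presentation had 1 of 15 lower, the peptide transporter Tap2 (-0.38 ± 0.17), and all 15 with a negative difference. In the IgA list the chemokine receptor Cxcr4 alone passed (-1.13 ± 0.44), and plasma cell genes had 0 of 13 past the threshold, with sums of 2309, 4711 and 7717 CPM in CDmetf and 2842, 4544 and 6157 CPM in HFDmetf.

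**Figure D4:**
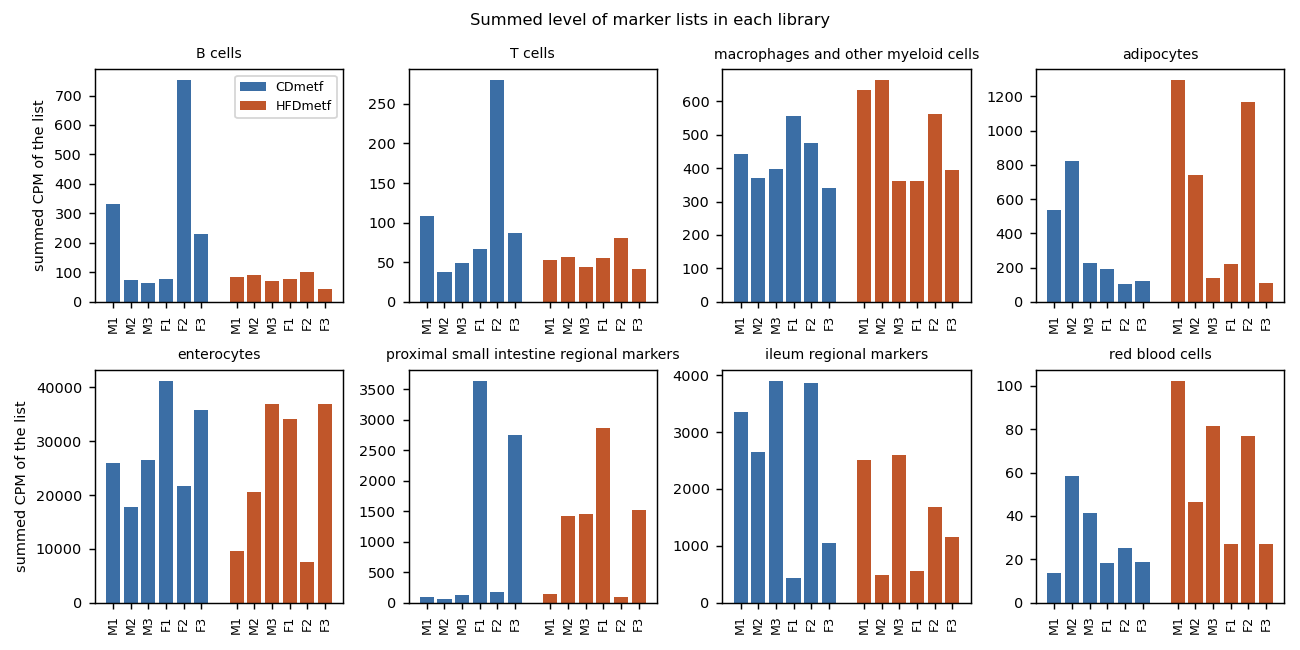
Summed CPM (y axis, linear from 0) of 8 marker lists in each library (x axis, CDmetf left, HFDmetf right). B-cell and T-cell sums were highest in CDmetf M1, F2 and F3, proximal markers in CDmetf F1 and F3 and in HFDmetf M2, M3, F1 and F3, and adipocyte markers in HFDmetf M1 and F2.

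Macrophage genes were on the higher side in HFDmetf. Of 19 tested, 4 were higher and 0 lower at unadjusted p under 0.05, with a median of 0.23. Fcgr3, a receptor for IgG, lay at 4.61, 5.88 and 7.93 CPM in CDmetf and 5.67, 11.7 and 15.4 CPM in HFDmetf (0.74 ± 0.23, FDR 0.582, higher in 5 of 6 pairs). The lysosomal glycoprotein Cd68 (0.93 ± 0.36), the complement gene C1qb (0.46 ± 0.18) and the integrin Itgax (0.45 ± 0.20) were higher in 5 of 6 pairs each. The sum of the list, at 339.9, 419.8 and 557 CPM in CDmetf and 360.5, 478 and 663 CPM in HFDmetf, was highest in HFDmetf M2, M1 and F2, the 3 libraries with the highest adipocyte sums in that group. The count past the threshold was 2 without CDmetf M2 or HFDmetf M2 and 7 without CDmetf F1, HFDmetf F1 or HFDmetf F3.

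In the list of epithelial defence genes 3 of 10 were lower and 0 higher at unadjusted p under 0.05. Nos2, which makes nitric oxide, lay at 15.6, 126 and 322 CPM in CDmetf and 22.6, 59.4 and 70.5 CPM in HFDmetf (-1.43 ± 0.57), and the antibacterial lectin Reg3g at 244, 268 and 520.0 CPM and 98.3, 149.6 and 278 CPM (-0.95 ± 0.44). Reg3b, a lectin of the same family, was at -1.16 ± 0.62 and did not pass. Serum amyloid Saa1 (-2.48 ± 0.98) rested on 128 reads in CDmetf and 10 in HFDmetf and can share reads with Saa2. The count past the threshold was 1 without CDmetf F3, CDmetf M3 or HFDmetf M2 and 5 without HFDmetf M1.

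Acta1 (chromosome 8, 123891769 to 123894751, minus strand, GRCm38), the actin of skeletal muscle, had the smallest p of the rule for lower genes. It lay at 0.522, 8.46 and 56.3 CPM in CDmetf and 0, 0.913 and 6.05 CPM in HFDmetf, lower in 6 of 6 pairs, with a difference of -2.91 ± 0.67 (FDR 0.582). The 2 highest values, 56.3 and 41.2 CPM, were in CDmetf M1 and M2, and the difference lay between -3.42 and -2.31 as single libraries were left out. Of the 19 skeletal muscle genes listed, 4 passed the filter on low counts and Acta1 alone was past the threshold. Among smooth muscle genes, 0 of 17 were higher and 0 lower, with a median of 0.019.

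Adipocyte genes differed widely between libraries of both groups. The hormone Lep was at 84.2, 83.6 and 43.6 CPM in HFDmetf M1, F2 and M2, at 7.56 CPM in F1 and at 0 in M3 and F3, against 0 to 5.71 CPM (median 3.97) in CDmetf (3.69 ± 1.52, FDR 0.599), and the difference was 2.07 (unadjusted p 0.160) without HFDmetf F2. It was the only one of 12 fat genes past the threshold, where none was lower and the sums were 105, 207 and 825 CPM in CDmetf and 112, 482 and 1294 CPM in HFDmetf. Fibroblast and matrix genes were all positive (18 of 18, median 0.33), with 0 past the threshold. Their median was 0.045 without HFDmetf M1, and within the M3 and F1 pairs it was -0.75 and -0.30. The hemoglobin gene Hbb-bs lay at 8.17, 10.9 and 28.9 CPM in CDmetf and 18.1, 32.6 and 64.8 CPM in HFDmetf (1.09 ± 0.43) and can share reads with Hbb-bt. It was the 1 of 4 red cell genes past the threshold, and 2 of 11 endothelial genes were, led by Egfl7, a secreted factor of vessels (0.64 ± 0.26). Of the exocrine pancreas list 7 of 16 passed the filter and 3 were higher, among them Ctrb1, the precursor of chymotrypsin, at 0, 0.0237 and 0.519 CPM in CDmetf and 0, 0.238 and 8.68 CPM in HFDmetf. HFDmetf F1 and M2, at 8.68 and 7.85 CPM, held its 2 highest values. The number of pancreas genes past the threshold was 1 without HFDmetf M2 and 5 without CDmetf M3 or HFDmetf M1.

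Few genes of the epithelial lineages passed the unadjusted threshold. Of the enterocyte list 1 of 15 was lower at unadjusted p under 0.05, the adhesion molecule Epcam (-0.48 ± 0.22), whose lowest value was in HFDmetf F2 and which was at -0.35 (unadjusted p 0.123) without that library. All 22 cell cycle genes had a positive difference, with a median of 0.16 and 0 past the threshold. That median was 0.084 without HFDmetf M1 and 0.30 without HFDmetf M3, and -0.47 and -0.19 within the M3 and F1 pairs. Crypt stem cell genes had 1 of 12 higher, Smoc2 (0.43 ± 0.17), enteroendocrine genes 1 of 16, the hormone Ghrl (0.87 ± 0.40, higher in 6 of 6 pairs), and tuft cell genes 1 of 8, the prostaglandin synthase Hpgds (0.57 ± 0.25). Paneth, goblet and mesothelial lists had 0 of 12, 0 of 12 and 0 of 6 members past the threshold in either direction. The same held for 0 of 8 germinal centre B-cell genes, 0 of 2 intraepithelial lymphocyte genes, 0 of 16 of neurons and glia, 0 of 15 of the stress response, 0 of 10 immediate early genes and 0 of 1 of the colon.

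Of 77 named genes past an unadjusted p of 0.05, 16 were not past it without HFDmetf F2, the shallowest library. Besides Epcam, Lep and Prkaa1, whose values are given above, these were the epithelial and nutrient genes Elovl1 (-0.35, p 0.0863), Ghrl (0.84, p 0.0618), Hpgds (0.44, p 0.0894), Reg3g (-0.86, p 0.0861), Slc10a2 (-1.81, p 0.0780), Tfrc (0.33, p 0.169), the genes of immunity Birc3 (-0.37, p 0.0710), C1qb (0.36, p 0.0583), Itgax (0.35, p 0.0981), Tap2 (-0.37, p 0.0605), and Egfl7 (0.52, p 0.0645), Hbb-bs (0.90, p 0.0544), Lamp1 (-0.30, p 0.0655), with the edgeR log2 difference and unadjusted p without that library. Without at least 1 single library of the 12, 33 were not past it, the 16 above among them. The further ones were Cd36, Mgll, Plin2, Slc27a2, Retsat, Smoc2, Prkab2, Nos2 and Saa1. Nfkb2, Cd68, Cxcr4, H2-Aa, Trac, Lck, Slamf6 and Ctrb1 completed them. With the term for libraries rich in mt-Co3 reads, the genes past the threshold in either direction were 3 of the drug-metabolizing list, 1 of epithelial defence and 0 of the endothelial list.

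The diet difference was also compared between males and females, 3 against 3 in each. No gene passed an FDR of 0.05 (smallest 0.161), and 760 of 14402 genes differed between the sexes at unadjusted p under 0.05 (5.28%). Of the 19 circadian clock genes, 13 did. Their median was -0.57 in males and 1.01 in females, and 0 were higher or lower in the sexes together. In the clock, Arntl and Npas2 drive transcription of the Per and Cry repressors and of output genes such as Dbp and Tef, so that the former and the latter peak at different times of day. Per3 differed by -0.81 in males and by 2.96 in females (difference -3.77 ± 0.94, FDR 0.407). Dbp differed by -0.70 in males and 2.87 in females, whereas Arntl differed by 0.72 and -2.49, the opposite way in each sex.

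Per3 was at 60.5, 13.5 and 51.7 CPM in the CDmetf males and at 13.7, 6.97 and 6.96 CPM in the CDmetf females. In HFDmetf it was at 11.0, 27.6 and 23.9 CPM in males and at 83.5, 80.2 and 40.6 CPM in females, so that females did not overlap between the groups and males did. The labels give no hour of tissue collection. Among the other lists, 4 of 7 proximal markers differed between the sexes at unadjusted p under 0.05, and Gata4 was high in 2 of 3 HFDmetf males and 0 of 3 CDmetf males. For MHC class I presentation it was 6 of 15, with medians of 0.089 in males and -0.59 in females, for epithelial defence 4 of 10, for enterocytes 3 of 15, for interferon-stimulated genes 4 of 34, for NF-kappa B genes 3 of 30 and for fatty acid uptake 3 of 29. Besides the clock, these and cholesterol synthesis were the lists with at least 3 members past the threshold.

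**Figure D5:**
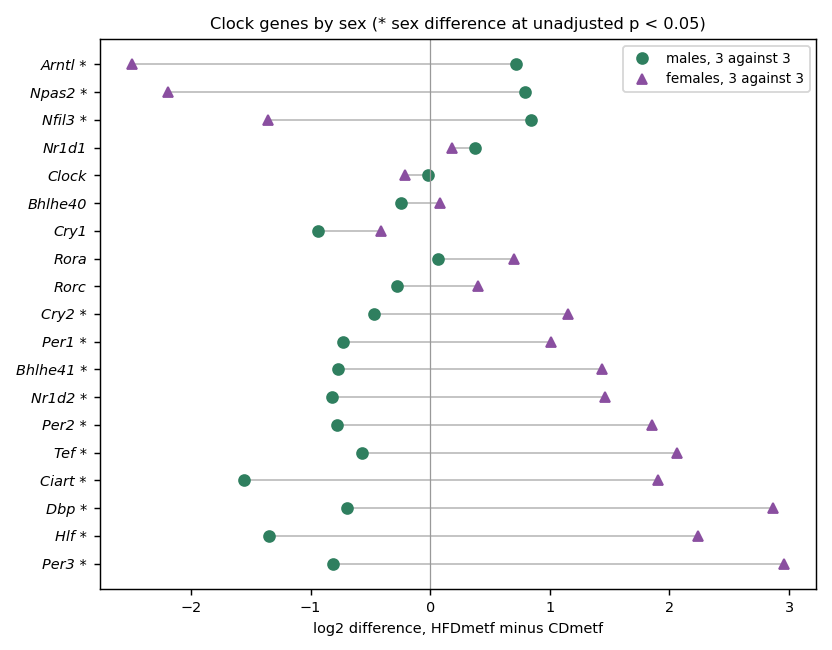
Log2 difference between HFDmetf and CDmetf (x axis) of each clock gene (y axis) in males (circles) and females (triangles), with genes ordered by the difference between the sexes. Among the 13 genes that differed between the sexes at unadjusted p under 0.05, Arntl, Npas2 and Nfil3 lay above 0 in males and below 0 in females, and Per3, Hlf, Dbp, Ciart, Tef, Per2, Nr1d2, Bhlhe41, Per1 and Cry2 the reverse.

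The diet difference with metformin was also set against that without the drug in 1 test of their difference (HFD minus CD, 6 libraries each, of which HFD M2 and F2 hold sex-linked transcripts that go against their sex labels). No gene passed an FDR of 0.05 (smallest 0.547), and 849 genes (6.03%) had an unadjusted p under 0.05. All 22 B-cell genes were among them, with a median of -2.29 with metformin and 1.66 without, as were 11 of 15 T-cell and 6 of 9 MHC class II genes, whose medians were 0.74 and 0.42 without the drug. The mean log2 CPM of the B-cell list was 4.02 in HFD M2 and 4.66 in HFD F1, against 0.626 to 2.01 in the other 4 HFD and 0.0589 to 2.73 in the 6 CD libraries, and HFD M2 is one of the libraries that go against their sex labels. Of the exocrine pancreas list 5 of 7 genes were past the threshold, with medians of 2.09 with and -2.63 without metformin, of the adipocyte list 4 of 12 (1.01 and -1.34), and of the red blood cell list 3 of 4 (0.96 and -0.74). Rel was at -0.53 with metformin and 0.29 without (difference -0.83 ± 0.27, FDR 0.709), and 7 of 30 NF-kappa B genes were past the threshold. Lysosomal and interferon genes had 6 of 36 and 4 of 34, with medians without metformin of 0.0071 and -0.079. Cholesterol synthesis had 0 of 30, and its median was -0.47 with and -0.48 without metformin. Fatty acid oxidation had 1 of 33, with medians of 0.29 and 0.43. Cyp4a10 lay at 0 to 0.161 CPM (median 0) in CD and at 0 to 4.50 CPM (median 2.73) in HFD, and its diet difference with metformin against that without had an FDR of 0.799.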

How the data were processed

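The members and gene lists were chosen with earlier results of these data known. Per the study's methods, RNA of the distal small intestine was depleted of ribosomal RNA and sequenced, reads were trimmed with Trimmomatic 0.39 and aligned to GRCm38 with STAR 2.5.3a, and the authors deposited read counts per gene. The annotation release is not given in the sources used here. Of 460 genes lying wholly inside exons of a gene on the other strand, 0 had a read, so counting did not use strand and reads in such overlaps were counted for neither gene. Rows naming no gene were left out, of which the row without a feature held 11.8 to 26.4% of a library.

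The 24 libraries of the 4 groups were fitted together with edgeR 4.0.16 (R 4.3.3, quasi-likelihood test, filterByExpr, TMM) with terms for group, for sex and for the replicate number, and p-values were adjusted by Benjamini-Hochberg over 14076 genes. SE are of the log2 difference. DESeq2 1.42.0 and limma 3.58.1 (voom) were alternatives, and the code was tested on simulated data. Libraries came from separate cages, and no 2 libraries of a group agreed within sampling noise. Pairs are the 6 libraries of each group with equal sex and number. Named genes are the 10 of smallest p in each direction with a mean of at least 1 CPM and the same direction in at least 5 pairs (no antigen receptor segments or predicted genes), up to 4 of smallest p and the first of each list, and Cyp4a10, Fabp1, Acta1 and Rel. Some genes that the rule names are not reported here. List members without a value here were not past the threshold or are summarised by count. Covariates for Gata4 and the B-cell list were added after seeing the data. Promoter windows are RefSeq sequences of GRCm38.p6.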

Additional observations from a re-analysis of the deposited data

Results flagged for a closer look

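In a group of 6 libraries, a value was singled out where its gap to the nearest other library was too large a share of the range of the group by Dixon's test. 178 such groups were tested, of which chance picks about 1 in 20, and 14 were picked. HFDmetf F2 was lowest of its group for Birc3 (20.5 CPM). CDmetf F2 was lowest of its group for Cd36 (14.2 CPM) and Slc26a10 (1.51 CPM). CDmetf M2 was lowest of its group for Ces2a (14.7 CPM). HFDmetf M1 was lowest of its group for Dbp (4.46 CPM). HFDmetf M3 was highest of its group for Elovl1 (96.1 CPM). CDmetf F3 was highest of its group for Igtp (30.7 CPM). CDmetf F1 was lowest of its group for Ptprj (135 CPM). HFDmetf M1 was highest of its group for Saa1 (0.955 CPM). HFDmetf M2 was highest of its group for Slamf6 (2.20 CPM). HFDmetf M3 was lowest of its group for Smoc2 (29.2 CPM). HFDmetf F3 was lowest of its group for Tcirg1 (17.0 CPM). HFDmetf F3 had the most reads on genes of its group (27226092), and HFDmetf F2 the largest share of reads on its 10 most abundant genes (36.6%). Without HFDmetf F2, Birc3 was at -0.37 and Tcirg1 at 0.41 on the log2 scale.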

How the results depend on the processing

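0 genes passed an FDR of 0.05 in edgeR under every alternative and in limma-voom, and DESeq2 called 3. At an unadjusted p under 0.05, the 539 higher and 569 lower genes became 844 and 1235 with no filter on low counts, where more genes were tested, 389 and 377 with at least 10 counts in every library, where fewer genes were tested, and 321 and 305 without the F2 libraries of both groups, a choice made after seeing the data. Leaving out 1 library at a time gave 332 to 806 higher and 363 to 821 lower genes, in both cases fewest without HFDmetf F2 and most without HFDmetf F3, and 0 passing an FDR of 0.05 each time. The fit of the 12 libraries alone gave 388 higher and 709 lower genes. The cause of these differences was not tested. Without a filter, 30 genes higher did not overlap between the groups. The values above include the replicate number as a block. The study's methods name sequencing block and sex as terms, and the labels do not state that the number is that block. Without the replicate block 454 genes were higher and 389 lower, and for the difference between the sexes 292 in place of 495 were higher in males. Deviations of libraries of equal sex and number from their group means correlated at -0.176 to 0.620 over the 6 pairs, above 0.1 in 4 of them, so the numbers were not taken to pair single mice. Among 84 genes, 1 of 2150 values reversed, that of Cxcr5 (0.59) with the B-cell list as a covariate. Cxcr5 is itself a member of that list, so this fit cannot decide on its difference. A shallow library sets what can be seen of low genes, since 3 reads in HFDmetf F2 stand for 1.71 CPM.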
